A study of Mus musculus with 141 samples.

Results

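*Mbp*, *Sox10*, *S100b*, *Ngfr*, *Pmp22* and *Th*, 6 of the 36558 genes listed in the deposited tables, were taken by name as genes of Schwann cells and sympathetic nerves and were described across inguinal white adipose tissue (iWAT, the main subcutaneous fat pad of the mouse). The data are RNA-seq libraries of 82 inbred strains of the Hybrid Mouse Diversity Panel (HMDP), 67 labelled female and 74 labelled male, each from a different combination of strain and sex. For 59 strains a library of either sex was sequenced, for 8 a female library alone and for 15 a male library alone. The strain names fall into 5 families, namely BXD (32 female and 34 male libraries), AXB/BXA (9 and 11), CXB (3 and 3), BXH (2 and 3) and the classical inbred strains (21 and 23). The recombinant inbred families (all but the classical strains) descend from crosses of C57BL/6 with another inbred strain. AXB19/PgnJ, AXB19a/PgnJ and AXB19b/PgnJ share a line number and are counted as separate strains. How far they are independent lines was not tested. The labels of BXD24/TyJ-Cep290<rd16>/J and of the classical strain BTBR T<+> tf/J record alleles, the first of *Cep290* and the second T<+> and tufted (tf). All groups ate chow up to an age of 8 weeks, then the same high-fat, high-sucrose (HF/HS) diet for a further 8 weeks, and were fasted for 4 h before collection, so no chow group stands beside them, and sex and strain family are the conditions compared.

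Schwann cells are the glia of peripheral nerve. They ensheath axons, wrap the thicker ones in myelin and leave the thin sympathetic fibers, which are the main efferent supply of fat, unmyelinated in Remak bundles. Sympathetic fibers release noradrenaline onto adipocytes and blood vessels and drive lipolysis and thermogenesis, while their cell bodies, which hold most of the neuronal mRNA, lie in ganglia outside the fat pad. Of the 6 genes, *Sox10* encodes the transcription factor that specifies and maintains the Schwann cell lineage, *Mbp* (myelin basic protein) and *Pmp22* (peripheral myelin protein 22) encode structural proteins of myelin, *S100b* a calcium-binding protein long used to stain Schwann cells, *Ngfr* the low-affinity neurotrophin receptor p75, and *Th* tyrosine hydroxylase, the rate-limiting enzyme of catecholamine synthesis. Several are also made elsewhere. *Sox10* is made by mammary epithelial progenitor cells, the *Mbp* locus also gives rise to the golli transcripts of immune and other cells, *Pmp22* is transcribed in many tissues from more than 1 first exon, *S100b* is made by adipocytes, and *Ngfr* by follicular dendritic cells of lymph nodes. Inguinal fat pads of mice can enclose a lymph node and, in females, mammary epithelium, so that markers of both were measured beside the 6 genes.

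All 6 are protein-coding genes of GRCm38. *Sox10* lies on chromosome 15 from 79154908 to 79165240 on the minus strand, *S100b* on chromosome 10 from 76253853 to 76261159 on the plus strand, *Ngfr* on chromosome 11 from 95568818 to 95587735 on the minus strand, *Pmp22* on the same chromosome from 63128982 to 63159547 on the plus strand, and *Th* on chromosome 7 from 142892752 to 142931128 on the minus strand. The deposited values are sums over all transcripts of a gene. The first and second annotated starts of *Pmp22* and the start of *Th* are shown because the *Pmp22* values below pool starts of unlike base composition and because *Th* is the single member near the limit of detection. They are RefSeq sequences of GRCm38.p6, run 5′ to 3′ from 250 bases before the start to 50 after it, and lie at chr11:63128732-63129031 (plus strand), chr11:63131207-63131506 (plus strand) and chr7:142899946-142900245 (minus strand). Capitals mark CG dinucleotides in the *Pmp22* sequences and the cAMP response element TGACGTCA in that of *Th*.
Pmp22 start 1: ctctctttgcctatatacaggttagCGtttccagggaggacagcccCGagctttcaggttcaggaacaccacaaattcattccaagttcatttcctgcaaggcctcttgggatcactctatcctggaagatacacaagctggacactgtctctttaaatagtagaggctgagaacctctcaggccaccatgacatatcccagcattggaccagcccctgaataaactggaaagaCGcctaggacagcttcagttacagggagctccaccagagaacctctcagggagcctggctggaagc
Pmp22 start 2: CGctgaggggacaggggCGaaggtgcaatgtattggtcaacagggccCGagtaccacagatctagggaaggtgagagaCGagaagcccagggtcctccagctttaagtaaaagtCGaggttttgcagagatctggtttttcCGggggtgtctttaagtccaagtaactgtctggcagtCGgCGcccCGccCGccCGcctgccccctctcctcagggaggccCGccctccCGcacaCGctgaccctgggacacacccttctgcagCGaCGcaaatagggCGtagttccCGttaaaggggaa
Th: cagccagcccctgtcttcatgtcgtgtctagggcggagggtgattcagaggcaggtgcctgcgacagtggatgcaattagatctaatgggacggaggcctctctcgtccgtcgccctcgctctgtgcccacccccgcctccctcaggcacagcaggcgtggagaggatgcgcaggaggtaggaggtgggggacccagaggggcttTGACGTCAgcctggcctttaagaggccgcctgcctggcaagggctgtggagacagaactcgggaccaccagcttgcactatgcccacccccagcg

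The first *Pmp22* start holds 3 CG dinucleotides and the second 18, against a median of 7 over the 32851 promoters of the same length in the RefSeq table. The other 2 annotated *Pmp22* starts hold 20 and 30. *Ngfr* holds 23, *Th* 15 and *S100b* 3. TGACGTCA, which reads the same on both strands and was looked for after the data had been seen, is present once in the *Th* promoter and in 1.79% of all promoters. The SOX core motifs ACAAAG and ACAATG, searched on both strands, occur in 18.7% and 12.6% of all promoters and in none of the 7 member promoters in the table, which come from *S100b*, *Ngfr*, *Pmp22* and *Th*.

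Before the levels are given, 3 libraries have to be named whose Y-linked genes (*Ddx3y*, *Eif2s3y*, *Kdm5d*, *Uty*) go against the label. Their summed level had a median of 9.54 CPM (counts per 1000000 counts, scaled by the TMM method) in libraries labelled female and 326 CPM in those labelled male, but it was 1425 CPM in the library labelled BXD34/TyJ female, 368 CPM in the library labelled BXD69/RwwJ female and 8.16 CPM in the library labelled NZW/LacJ male. The library labelled BXD34/TyJ female also had the highest summed melanocyte markers, 164 CPM against at most 8.93 CPM elsewhere among females, and the library labelled BXD79/RwwJ female stood apart by its skeletal muscle genes, 20672 CPM against at most 566 CPM in the other females. Levels and correlations of *Sox10*, the lower end of *Ngfr* and the family tests are also given without libraries that go against their label. Other values keep every library under its label unless stated otherwise. Library totals ran from 6269154 to 78562648 estimated counts with a median of 30233245, and at that median 3 counts, taken as the floor of detection, equal 0.0992 CPM. The p-values measure the spread between single libraries, since no strain and sex has a second one.

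Transcripts of the Schwann cell myelin list, taken as a sum, were present in every library. The 16 Schwann cell myelin genes listed as companions of *Mbp* and *Pmp22* (among them *Prx*, *Mag* and *Egr2*) all passed the filter on low counts, and their summed level ran from 64.05 to 417 CPM in females with a median of 151, and from 41.7 to 549 CPM in males with a median of 164. Neuronal transcripts were scarcer. Of the 12 sympathetic neuron genes, 5 passed the filter, and *Dbh*, *Npy*, *Chgb*, *Phox2a*, *Hand2* and *Prph* were among those that did not.

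Between genes, levels can be set side by side only per transcript length, in TPM (transcripts per 1000000 transcripts). In females the median TPM fell in the order *Pmp22* (115.6), *Mbp* (33.5), *S100b* (11.8), *Sox10* (9.004), *Ngfr* (1.52) and *Th* (0). In males the order was *Pmp22* (140.9), *Mbp* (34.7), *S100b* (19.4), *Ngfr* (1.27), *Sox10* (0.878) and *Th* (0). *Sox10* thus stood close to *S100b* in females and below *Ngfr* in males. Every neighboring pair in these orders had overlapping ranges over libraries, *S100b* and *Sox10* in females for instance from 1.80 to 55.5 and from 0.242 to 53.1 TPM. Without BXD34/TyJ and BXD69/RwwJ, female *Sox10* began at 1.65 TPM.

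**Figure D1:**
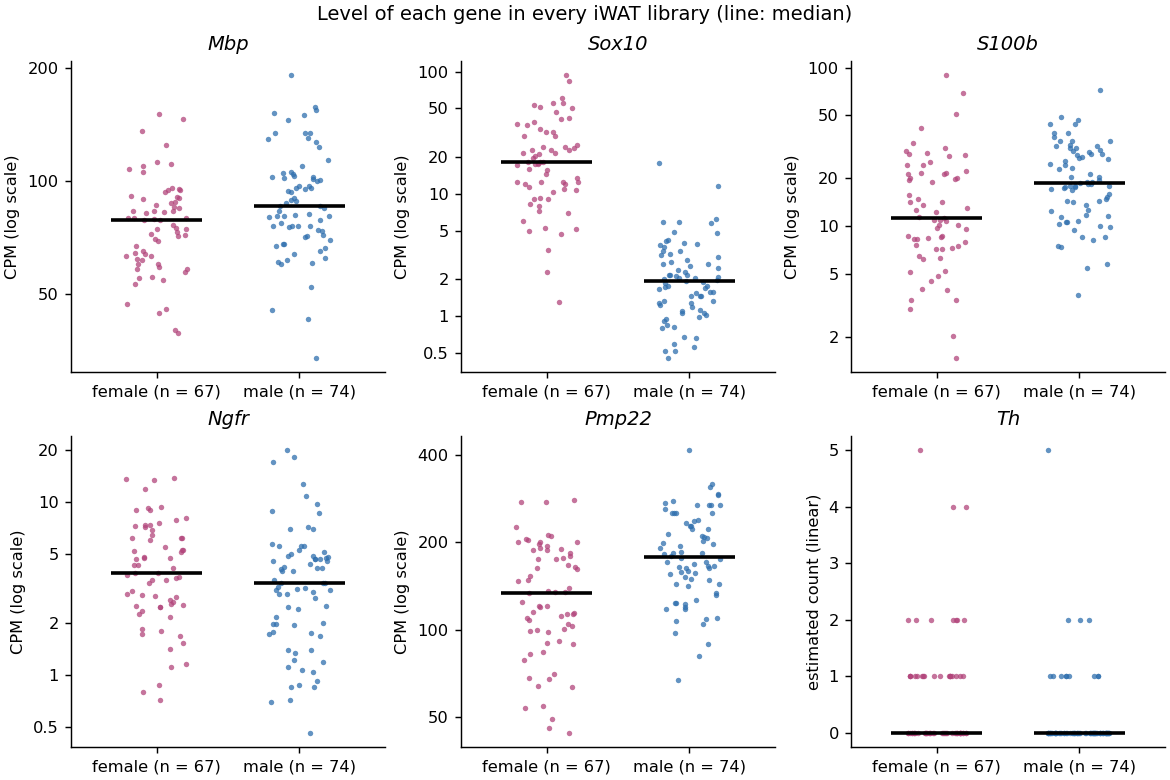
Level of each of the 6 genes in every iWAT library, females (n = 67) and males (n = 74) as separate columns of points with a line at the median, in CPM on a log axis, and for Th as the estimated count on a linear axis. The columns overlap for every gene, Sox10 has a median of 18.1 CPM in females and 1.93 CPM in males, and most Th points lie at 0.

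*Sox10* had the widest difference between the sexes. In females its level ran from 1.31 CPM (the library labelled BXD69/RwwJ) over a median of 18.1 to 93.4 CPM (KK/HlJ), and in males from 0.458 CPM (BXH9/TyJ) over a median of 1.93 to 17.8 CPM (the library labelled NZW/LacJ). The ranges overlap at their ends. Without the libraries that go against their label, females began at 3.48 CPM (BXD24/TyJ-Cep290<rd16>/J) and males ended at 11.6 CPM (PL/J), which still overlap.

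Over the 59 strains with both sexes, *Sox10* averaged 24.8 ± 19.2 CPM in females against 2.85 ± 2.71 CPM in males (SD over 59 strains), a log2FC female vs. male of 3.07 ± 0.22 (SE, adjusted p = 4.87e-19, edgeR quasi-likelihood test). It was higher in the library labelled female in 59 of 59 strains, NZW/LacJ included. In this fit 58.1% of 16765 genes were called at an adjusted p under 0.05, 28.4% higher and 29.8% lower in females, so that a call as such sets no gene apart. All 5 members that passed the filter on low counts were called, *Sox10* and *Ngfr* higher and *Mbp*, *S100b* and *Pmp22* lower in females. In bulk tissue, more cells of a type and more RNA per cell cannot be told apart, and this holds for each difference below.

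*Mbp*, on chromosome 18 of GRCm38 from 82475146 to 82585637 (plus strand), was lower in females by a small margin. Females ran from 39.3 CPM (I/LnJ) over a median of 78.9 to 152 CPM (BXD43/RwwJ), and males from 33.8 CPM (AKR/J) over a median of 85.8 to 192 CPM (BXD45/RwwJ). The ranges overlap almost whole. Matched female and male means were 79.2 ± 22.97 and 95.97 ± 29.8 CPM (SD over 59 strains). The female vs. male log2FC came to -0.26 ± 0.07 (SE, adjusted p = 0.000525, edgeR), and the male library was the higher in 43 of 59 strains. With library totals in place of TMM scaling, which moved the median log2FC of all genes from 0.01 to 0.12 and the share of calls that were higher in females from 48.8% to 72.8%, the log2FC of *Mbp* was -0.15 and the call was lost (adjusted p = 0.0507).

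*Pmp22* was the most abundant member and was lower in females. Females ran from 44.1 CPM (AXB12/PgnJ) over a median of 133.4 to 280 CPM (BXD40/TyJ), and males from 67.0 CPM (I/LnJ) over a median of 178 to 415 CPM (CXB11/HiAJ). Most of both ranges is shared. Matched female and male means were 136.02 ± 56.1 and 191.8 ± 68.7 CPM (SD over 59 strains). The female vs. male log2FC came to -0.52 ± 0.10 (SE, adjusted p = 6.8e-06, edgeR), with the male library higher in 45 of 59 strains.

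*S100b* spanned a wide range over strains, with the highest female library 60.9 times the lowest. Females ran from 1.47 CPM (AXB12/PgnJ) over a median of 11.2 to 89.6 CPM (BXD14/TyJ), and males from 3.66 CPM (BXD73/RwwJ) over a median of 18.6 to 72.2 CPM, again in BXD14/TyJ. The sexes overlap, and 1 strain holds the highest library of both. Matched female and male means were 14.9 ± 13.5 and 22.5 ± 12.5 CPM (SD over 59 strains), for a log2FC of -0.78 ± 0.12 (SE, adjusted p = 1.63e-07, edgeR), with the male library higher in 50 of 59 strains. Without the strain term the log2FC was -0.58, over all libraries without that term it was -0.41, and in the 20 strains whose libraries both held at most 100 CPM of summed lymph node markers it was -0.44.

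*Ngfr* differed little between the sexes. Females ran from 0.722 CPM (the library labelled BXD69/RwwJ, and 0.799 CPM in BXD24/TyJ-Cep290<rd16>/J without it) over a median of 3.88 to 13.8 CPM (A/J), and males from 0.465 CPM (BXD24/TyJ-Cep290<rd16>/J) over a median of 3.40 to 19.9 CPM (AXB13/PgnJ). Male libraries reached both lower and higher than female ones. Matched female and male means were 5.14 ± 3.15 and 4.55 ± 4.09 CPM (SD over 59 strains), for a log2FC of 0.36 ± 0.15 (SE, adjusted p = 0.0307, edgeR), with the female library higher in 37 of 59 strains. Without the strain pairing (no replicate block) the log2FC was 0.19 and was not called (adjusted p = 0.435), and limma-voom with the strain term (log2FC 0.25, adjusted p = 0.125) did not call it either, nor did edgeR with no filter on low counts (0.34, adjusted p = 0.0625) or in the 20 strains low in lymph node markers (0.26, adjusted p = 0.374).

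*Th* stood at the limit of detection. Its count was 0 in 39 of the 67 females and in 61 of the 74 males, and at most 5 counts in any library. It reached 3 counts in 3 female libraries and 1 male library, the highest being BXH8/TyJ male (0.164 CPM) and SM/J female (0.148 CPM). Its level averaged 0.0207 CPM over the females and 0.00971 CPM over the males, both under the floor of 3 counts in a library of median depth. *Th* did not pass the filter on low counts, so its difference between the sexes was not tested.

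**Figure D2:**
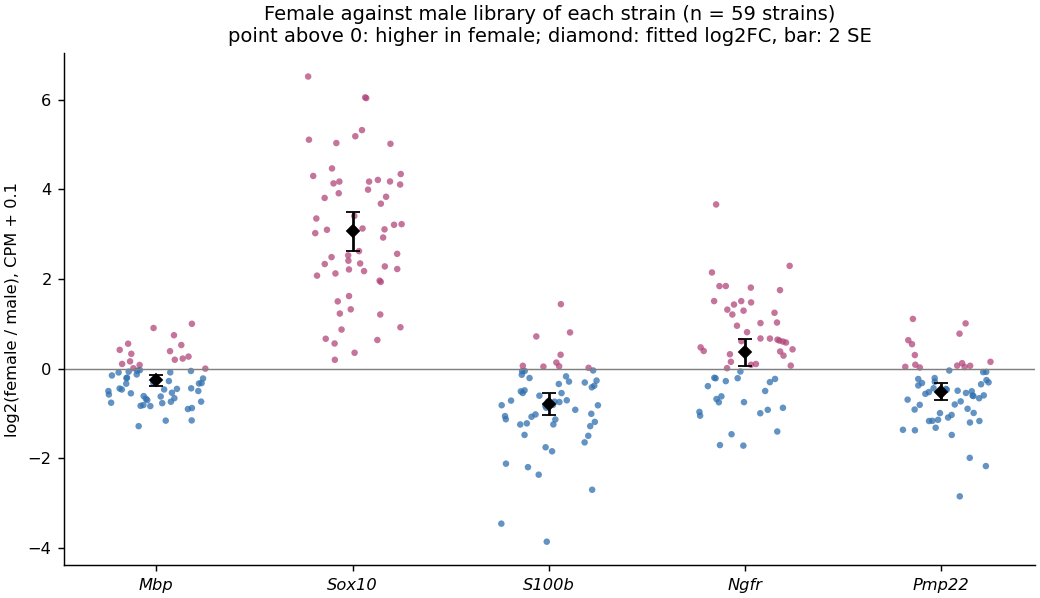
Difference between the female and the male library of each of 59 strains for the 5 genes tested, as log2 of the CPM ratio after adding 0.1 CPM, 1 point per strain, with the fitted log2FC as a diamond and 2 SE to either side as a bar. All Sox10 points lie above 0, while the points of the other 4 genes lie on both sides of it.

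The companions of these genes in the same fit did not move as 1 block. Of 16 myelin genes, 0 were called higher and 4 lower in females by edgeR, where 28.4% of all genes were called higher and 29.8% lower. The same shares over all genes stand beside each list count below. The median log2FC of the myelin genes was -0.09 against 0.01 over all genes. Among the 4 called lower were *Pmp2* (-0.91 ± 0.28, adjusted p = 0.00396), *Cldn19* (-0.40 ± 0.17, adjusted p = 0.0423) and *Fa2h*, which makes hydroxylated myelin lipids (-0.49 ± 0.18, adjusted p = 0.015). With library totals 4 of the 16 were called higher and 2 lower, and DESeq2 and limma-voom called 1 each higher. In the 20 strains low in lymph node markers, edgeR called 0 of the 16 in either direction, and 1 had an unadjusted p under 0.05. That fit held fewer strains and called fewer genes in general, with 3157 higher in females against 4759 in the main fit. Whether calls lost there, for these or other genes, come from the fewer strains or from lymph node content was not tested.

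Genes of Schwann cell identity and of non-myelinating Schwann cells split evenly in direction, as did all genes (28.4% called higher and 29.8% lower). Of 14 listed and 11 tested, 4 were called higher in females, namely *Erbb3*, the neuregulin receptor (3.39 ± 0.17), *Itgb4* (0.91 ± 0.10), *Cadm4* (0.44 ± 0.14) and *Ncam1* (0.35 ± 0.07), and 4 lower, namely *Kcna1* (-0.37 ± 0.10), *Cdh19* (-0.34 ± 0.10), *Gfra3* (-0.28 ± 0.11) and *Scn7a* (-0.26 ± 0.08, log2FC ± SE). *Erbb3* and *Itgb4* are also made by epithelia. In the 20 strains low in lymph node markers 3 of the 11 were called higher and 1 lower, and without the strain pairing (no replicate block) *Cdh19* and *Gfra3* were not called.

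Of 5 sympathetic neuron genes tested, 4 were called higher in females, *Gata3* (3.72 ± 0.19), the vesicular monoamine transporter *Slc18a2* (0.82 ± 0.14), the noradrenaline transporter *Slc6a2* (0.31 ± 0.12) and *Ddc* (0.25 ± 0.10), and *Chga* was called lower (-0.36 ± 0.16). *Gata3* is also a factor of mammary luminal cells. By limma-voom 3 of the 5 were called higher and 0 lower, and in the 20 strains low in lymph node markers 2 and 0. Without the strain pairing (no replicate block) *Slc6a2*, *Ddc* and *Chga* were not called. *Slc6a2* averaged 0.878 ± 0.498 CPM in females against 0.723 ± 0.410 CPM in males (SD over 59 strains). Of 9 pan-neuronal genes tested, *Eno2* was called higher (0.24 ± 0.10) and *Uchl1* (-0.42 ± 0.15) and *Stmn2* (-0.21 ± 0.08) lower in females, and none of the 3 was called without the strain pairing.

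Among the growth factors of nerve and glia, all 8 of 10 ligands that passed the filter were called. *Ntf5* (4.57 ± 0.23), *Nrtn* (3.39 ± 0.27), *Nrg1* (1.47 ± 0.22), *Bdnf* (1.04 ± 0.15) and *Sema3a* (0.23 ± 0.09) were higher in females. Those called lower included *Nrg4* (-0.63 ± 0.09) and *Ntf3* (-0.53 ± 0.11). Of 10 receptors, *Sorcs2* (1.50 ± 0.26), *Erbb2* (1.37 ± 0.09) and *Gfra2* (0.38 ± 0.08) were higher, and *Ret* (-0.96 ± 0.20), *Nrp1* (-0.51 ± 0.06), *Ntrk2* (-0.46 ± 0.10) and *Sort1*, a partner of p75 in binding pro-neurotrophins (-0.37 ± 0.08), were lower. Of 13 adrenergic receptor and catecholamine clearance genes, the 1 called higher was *Adra2a* (0.97 ± 0.14) and the 6 called lower were *Slc22a3*, a transporter that clears catecholamines (-0.81 ± 0.10), *Adra1d* (-0.77 ± 0.12), *Adra1b* (-0.48 ± 0.13), *Maoa* (-0.29 ± 0.09), *Maob* (-0.25 ± 0.08) and *Adra1a* (-0.25 ± 0.10). Of the 51 called genes of the nerve and mammary epithelial lists, 31 were called under each of 14 alternatives and none reversed. Among the others, *Cldn19*, *Gfra3*, *Chga*, *Stmn2* and *Adra1a* were not called with library totals, and *Pmp2*, *Scn7a*, *Cadm4*, *Ret*, *Ntf3* and *Maob* lost the call only in the 20 strains low in lymph node markers. *Cldn19*, *Sema3a* and *Adra1a* were not called without the strain pairing.

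Markers of other cell types moved with sex in the same libraries. All 9 mammary epithelial markers (*Krt5*, *Krt8*, *Krt14*, *Krt18*, *Cldn3*, *Cldn7*, *Epcam*, *Csn3*, *Wfdc18*) were called higher in females, by a log2FC from 5.87 to 8.14, and their summed level ran from 0.887 to 2197 CPM in females (median 487) and from 0.287 to 483 CPM in males (median 2.55). All 7 mammary basal markers, of which 2 are on the first list, were also called higher. All 5 adipocyte markers (*Adipoq*, *Plin1*, *Plin4*, *Cidec*, *Fabp4*) were called lower in females, with a median log2FC of -0.61, as were all 5 macrophage markers (median -0.73). All 4 perineurial markers tested were called higher, as were 3 of 6 fibroblast markers, while the mural markers had 2 of 6 higher and 3 lower, and the muscle and thermogenic lists 1 lower each. Of 5 melanocyte and of 6 lymph node markers tested, 0 were called by edgeR in either direction and 0 had an unadjusted p under 0.05, while DESeq2 called 0 and 1. The part of these cell types in the differences of the 6 genes was not tested.

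The level of *Sox10* had a higher r with the mammary markers than with the myelin genes across females, and the reverse held across males. Across female libraries, *Sox10* correlated with the mean log2 level of the mammary epithelial markers with Pearson's r = 0.90 and with that of the myelin genes with r = 0.11 (n = 67). Across male libraries the order was turned, r = 0.57 with the mammary markers and r = 0.71 with the myelin genes (n = 74). In males the mammary markers summed to a median of 2.55 CPM, and 3 of the 9 were under 3 counts in most libraries. How far levels this near the floor lower the male r was not tested. With the identity genes r was 0.49 in females and 0.84 in males, and with the perineurial markers, of which *Itgb4* and *Slc2a1* are also made by epithelia, 0.92 and 0.71. These values are descriptions over libraries that share a depth and a cell composition each, and carry no test.

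KK/HlJ and SWR/J, the females highest in *Sox10* (93.4 and 83.1 CPM), were also the highest in summed mammary markers (2197 and 1961 CPM), while the library labelled BXD69/RwwJ female was the lowest in both (1.31 and 0.887 CPM). Among males the same held at the upper end, where the library labelled NZW/LacJ (17.8 CPM of *Sox10*) and PL/J (11.6 CPM) had the highest mammary sums, 483 and 331 CPM. Without BXD34/TyJ and BXD69/RwwJ the female values were r = 0.94 with the mammary markers and r = 0.19 with the myelin genes, and without NZW/LacJ and PL/J the male values were r = 0.39 and r = 0.80 (n = 72). The log2FC of *Sox10* was 3.12 without NZW/LacJ and 2.85 in the 20 strains low in lymph node markers.

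**Figure D3:**
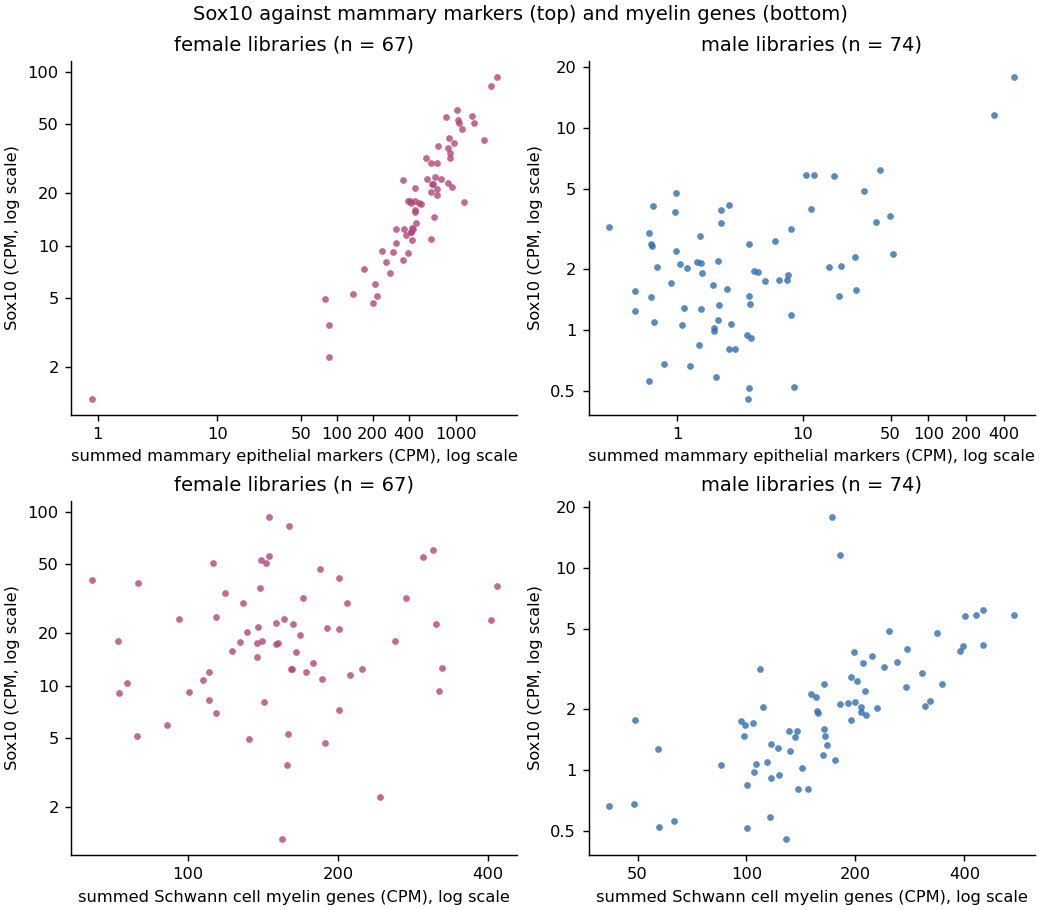
Sox10 level (CPM, log axis) against the summed level of the mammary epithelial markers (top) and of the Schwann cell myelin genes (bottom, both in CPM on log axes), 1 point per library, females (n = 67) at the left and males (n = 74) at the right. Among females the points rise with the mammary markers (r = 0.90 on list means) and scatter against the myelin genes (r = 0.11), and among males they rise with the myelin genes (r = 0.71).

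The 5 genes closest to *Sox10* in pattern were not the same ones in females and in males. After subtraction of each sex mean, the 5 closest over all libraries were *Rtkn* (r = 0.86), *Epb41l4b* (0.86), *Plekhb1* (0.85), *Kcnk1* (0.83) and *Col9a2* (0.81). In females alone they included *Irx1* (0.95), *Aldoc*, *Col9a2* and *Large2* (0.94), and *Irx1* reached an r of 0.46 in males. In males alone they were *Plekhb1* (0.84), *Cadm4*, a glial adhesion molecule of myelinated fibers (0.81), *Ank3*, *Rasgef1c* and *Epb41l4b*.

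*Mbp* stayed with the other myelin genes in both sexes. Its 5 closest genes over all libraries included *Ddn* (r = 0.79), *Prx*, which encodes periaxin, a scaffold protein of the Schwann cell (0.76), *Smco3* (0.75) and *Bcas1* (0.74). Its r with the mean of the myelin genes was 0.80 in females and 0.81 in males, and with the identity genes 0.61 and 0.76. With *Sox10* itself it had an r of 0.08 in females and 0.63 in males.

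*Pmp22* had a higher r with the adipocyte markers than with the myelin genes in females, and about the same r with both in males. Its closest genes over all libraries were *Pttg1ip* (r = 0.81), *Anxa7* (0.81), *Dlc1* (0.80), *Kif1bp* (0.79) and *Aoc3*, an amine oxidase abundant in adipocytes (0.79). In females the closest was *Pparg*, the regulator of adipocyte differentiation (0.87), and in males *Prx* (0.74) and *Pllp*, another myelin proteolipid (0.73), were among the closest 5. Its r with the adipocyte markers was 0.84 in females and 0.69 in males, with the myelin genes 0.46 and 0.69, and with the lymph node markers -0.59 and -0.62. The female library lowest in *Pmp22*, AXB12/PgnJ, was also the lowest in *S100b* and in summed adipocyte markers (3358 CPM against a female median of 17805), and held 1022 CPM of lymph node markers against a median of 33.2.

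The 5 genes closest to *S100b* over all libraries were *Mcur1*, a regulator of mitochondrial calcium uptake (r = 0.66), *Timm17a*, a subunit of the inner membrane import machinery (0.66), *Higd1a* (0.66), *Ccdc3* (0.65) and *Acadm*, the medium-chain acyl-CoA dehydrogenase (0.65). Each was closer in females (r from 0.72 to 0.77) than in males (0.41 to 0.52), where the closest 5 were other genes, *1110008P14Rik* (0.63), *Psmd8*, *Ube2f*, *Psma2* and *Fam98a*. By Spearman's rank or on log2(TPM + 1), 1 of the 5 over all libraries was again among the closest 5. Its r with the adipocyte markers was 0.57 in females and 0.21 in males, and with the lymph node markers -0.51 and -0.26. With the thermogenic genes (*Ucp1*, *Cidea*, *Dio2*, *Ppargc1a*, *Elovl3*, *Cox7a1*) its r was 0.39 in females and 0.41 in males, and the female library highest in *S100b*, BXD14/TyJ, had the highest thermogenic sum among females (3719 CPM against a median of 48.6). With the adrenergic and catecholamine clearance genes its r was 0.62 in females and 0.10 in males, and with the myelin genes it was -0.02 in females and -0.17 in males.

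*Ngfr* had an r near 0 with the mean of the myelin genes, -0.01 in females and -0.03 in males. Its 5 closest genes included *Zkscan17* (r = 0.62), *A230050P20Rik* (0.61), *Trim28*, which encodes a broadly expressed nuclear protein (0.61), and *Pacs1* (0.60). Its r with the lymph node markers was 0.42 in females and 0.40 in males, and with the adipocyte markers -0.48 and -0.43. With the perineurial markers r was 0.48 in females and 0.35 in males, with the mammary epithelial markers 0.47 and 0.10, and with *Sox10* 0.46 and 0.13. With *S100b* it had an r of -0.52 in females and -0.31 in males, while neither gene rose with the mean of the myelin genes. Over the pairs of the 5 genes with levels above the floor, r ran from -0.52 (*S100b* with *Ngfr*) to 0.46 (*Sox10* with *Ngfr*) in females and from -0.31 (*S100b* with *Ngfr*) to 0.63 (*Mbp* with *Sox10*) in males. *Th* was not correlated. *Mbp* in both sexes and *Sox10* in males had the Schwann cell lists closest, and *S100b*, *Ngfr* and female *Sox10* did not.

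**Figure D4:**
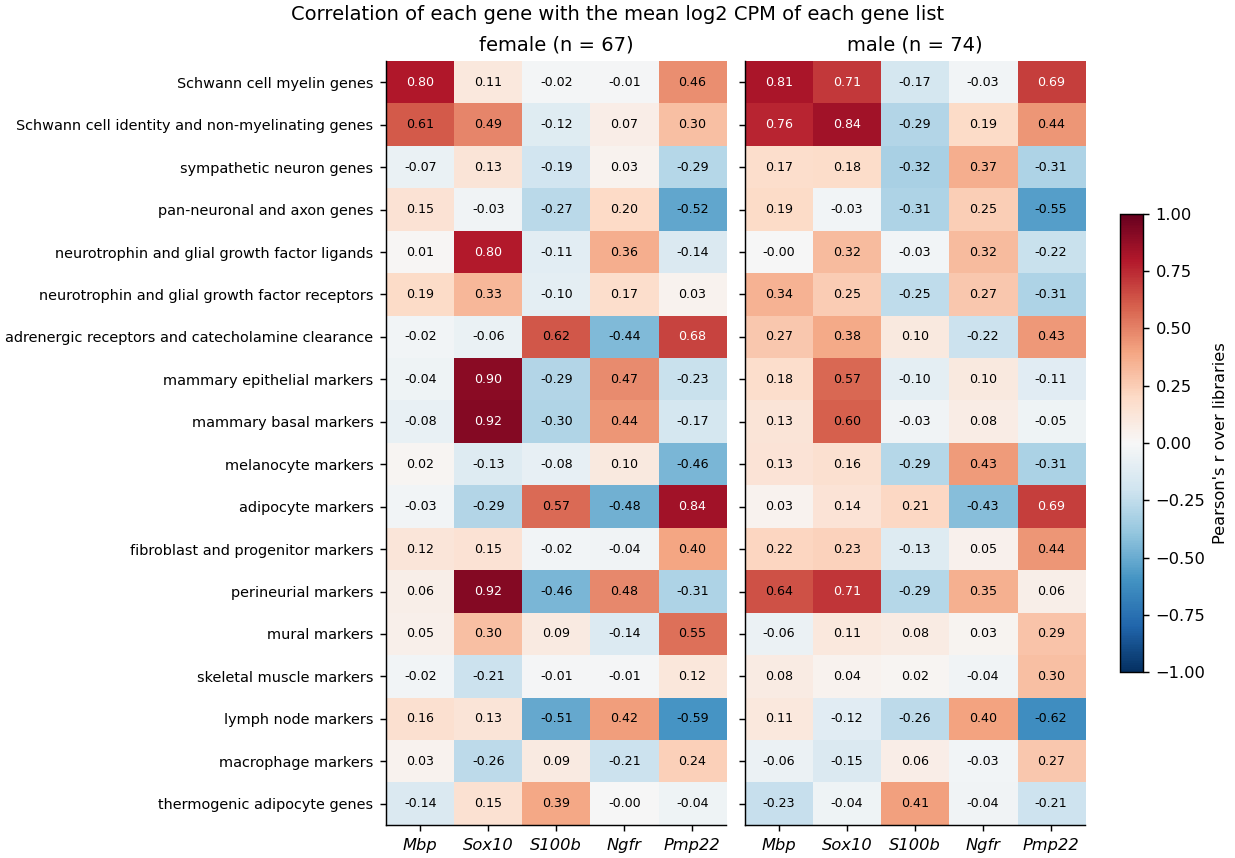
Pearson's r over libraries between each of 5 genes (columns) and the mean log2 CPM of each gene list (rows), females at the left (n = 67) and males at the right (n = 74), with the value printed in each cell. Mbp is highest with the myelin genes in both sexes, Sox10 with the mammary and perineurial lists in females and the Schwann cell identity genes in males, and Pmp22 with the adipocyte markers in females.

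Whether strains differed was asked in the same fit, from the 1 female and 1 male library of each of 59 strains. Of the 16765 genes, 71.2% were called for the strain term, and 4 of the 5 members tested were called, *S100b* (adjusted p = 5.99e-06, edgeR), *Ngfr* (adjusted p = 0.000342), *Mbp* (adjusted p = 0.0148) and *Pmp22* (adjusted p = 0.0477). *Sox10* was not (adjusted p = 0.336), although limma-voom called it (adjusted p = 0.00489). The call of *Pmp22* was lost with limma-voom (adjusted p = 0.059) and with no filter on low counts (adjusted p = 0.0582).

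How far the female level of a strain went with its male level differed between the members. These values come from the same libraries as the strain test and are no separate support for it. Between the log2 levels of both libraries of a strain, r was 0.57 for *S100b*, 0.45 for *Ngfr*, 0.28 for *Mbp*, 0.25 for *Pmp22* and -0.10 for *Sox10* (n = 59 strains, a description). BXD14/TyJ was the highest in *S100b* in both sexes, with 89.6 and 72.2 CPM. A/J was high in *Ngfr* in both, with 13.8 and 16.97 CPM. KK/HlJ, the highest female in *Sox10* at 93.4 CPM, had 2.46 CPM in the male.

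*Ngfr* was the member that differed between strain families, and it did so in males. The F test over the 5 families called 10.5% of 16862 genes in males and 5.59% in females. In males 1 of the 5 members tested was called, *Ngfr* (adjusted p = 0.00851, edgeR), and in females 0 of 5 were, with 0 of 5 also at an unadjusted p under 0.05. The male call held under each of the 14 alternatives, with adjusted p from 0.00366 to 0.0212.

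Among males the median level of *Ngfr* was 2.74 CPM in BXD (from 0.465 to 5.56), 4.87 CPM in AXB/BXA (from 2.46 to 19.9), 4.69 CPM in the classical strains (from 0.849 to 18.1), 3.21 CPM in BXH (from 1.96 to 10.9) and 1.19 CPM in CXB (from 1.04 to 5.03). All families overlap, and no BXD male exceeded 5.56 CPM. AXB/BXA holds AXB19/PgnJ, AXB19a/PgnJ and AXB19b/PgnJ as separate strains, and its SE and p take them as independent. Against BXD the log2FC was 1.27 ± 0.32 in AXB/BXA (SE, adjusted p = 0.0208, where 1.25% of genes were called higher), 1.10 ± 0.27 in the classical strains (adjusted p = 0.00441, 4.5% of genes), 1.004 ± 0.54 in BXH (adjusted p = 0.286) and -0.14 in CXB. The AXB/BXA difference was not called with library totals (1.18, adjusted p = 0.0515) or with limma on log2(TPM + 0.1) (1.10, adjusted p = 0.144) or log2(TPM + 1) (0.64, adjusted p = 0.156), and the classical difference not with limma on log2(TPM + 0.1) (0.86, adjusted p = 0.0547). On log2(TPM + 1) the classical difference was 0.51 (adjusted p = 0.0482, limma). Without the males over 100 CPM of lymph node markers, an alternative chosen after seeing the data, the AXB/BXA difference was 2.14 (adjusted p = 0.00211, edgeR).

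In females BXD was again lower than AXB/BXA and the classical strains in its median, and its spread was larger than in males (SD 3.02 against 1.51 CPM), while that of the other 4 families was smaller. Median levels were 3.31 CPM in BXD (from 0.722 to 13.6), 5.21 CPM in AXB/BXA (from 1.42 to 13.4), 4.81 CPM in the classical strains (from 1.16 to 13.8), 6.72 CPM in BXH and 2.95 CPM in CXB. Against BXD the log2FC was 0.41 in AXB/BXA (adjusted p = 0.568, edgeR, where 0.925% of genes were called higher) and 0.34 in the classical strains (adjusted p = 0.425, 3.32% of genes). Without BXD34/TyJ and BXD69/RwwJ these values were 0.34 (adjusted p = 0.693, edgeR) and 0.28 (adjusted p = 0.555). Without the females over 100 CPM of lymph node markers they were 0.81 (adjusted p = 0.880) and 0.65 (adjusted p = 0.369). Whether the family difference itself differs between the sexes was tested for BXD against all other strains together, where the female vs. male log2FC of *Ngfr* in BXD exceeded that in the other strains by 0.67 ± 0.28 (SE, unadjusted p = 0.0213, adjusted p = 1.0). In that interaction test edgeR called 0 of 16765 genes, and 1.87% had an unadjusted p under 0.05.

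The parental strains of the families spanned much of the *Ngfr* range. C57BL/6J had 2.16 CPM in the female and 2.00 CPM in the male, and DBA/2J 3.55 and 4.13 CPM, and these are the parents of BXD. A/J, the other parent of AXB/BXA beside C57BL/6J, had 13.8 and 16.97 CPM, C3H/HeJ, a parent of BXH, 9.04 and 18.1 CPM, and BALB/cJ, a substrain of the BALB/c parent of CXB, 6.22 and 4.71 CPM. Each is 1 library per sex.

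**Figure D5:**
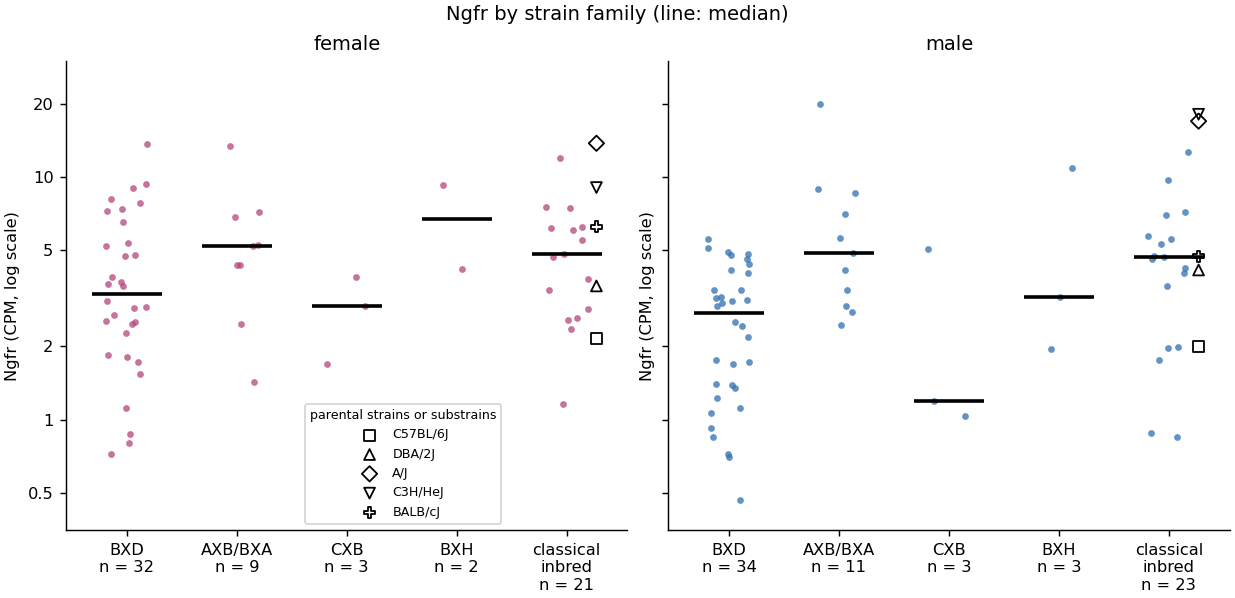
Ngfr level (CPM, log axis) in the 5 strain families, females at the left and males at the right, 1 point per library with a line at the family median and the parental strains (for CXB a substrain) marked. Male medians are 2.74 CPM in BXD, 4.87 CPM in AXB/BXA and 4.69 CPM in the classical strains, and every family overlaps BXD.

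No other member was called between families. Adjusted p-values of the edgeR F test were 0.989 and 0.254 for *Mbp*, 0.358 and 0.220 for *Sox10*, 0.848 and 0.959 for *S100b*, and 0.796 and 0.123 for *Pmp22*, in females and in males, and among these *Pmp22* in males had an unadjusted p of 0.0295. The sex difference of each was also not called as different between BXD and the other strains, with a log2 value of 0.04 for *Mbp* (95% interval -0.22 to 0.30), 0.04 for *Sox10* (-0.79 to 0.87), 0.19 for *S100b* (-0.29 to 0.67) and 0.23 for *Pmp22* (-0.15 to 0.61). The interval of *Sox10* is wide enough to hold a change of the sex difference by more than 0.5 on the log2 scale in either direction. Of the genes on the nerve lists, the family test in males called *Gjb1* (1 of 16 myelin genes) and *Cdh19* (1 of 11 identity genes). It also called *Ntf5* (1 of 8 ligands) and *Adra1d* (1 of 13 adrenergic genes), against 10.5% of all genes. It called 0 of 5 sympathetic neuron genes, 0 of 9 pan-neuronal genes and 0 of 10 receptors. The 4 called genes were called without the library labelled NZW/LacJ too, where *Ntrk3* of the receptors was also called. None of these was called without the males over 100 CPM of lymph node markers. The female test called *Chga* (1 of 5 sympathetic neuron genes) and *Adra2b* (1 of 13 adrenergic genes), against 5.59% of all genes. On the other nerve lists it called 0. In males the test called 7 of 9 mammary epithelial markers, against 3 without NZW/LacJ, and 6 of 6 thermogenic genes, against 5. The mammary markers *Krt5* and *Krt14* had a median of 0 CPM in both BXD and classical males, and their highest male libraries were NZW/LacJ (38.1 and 19.6 CPM) and PL/J (23.1 and 8.06 CPM), with at most 1.66 and 1.24 CPM in the others. Without the males rich in lymph node markers, 0 of the 9 mammary markers and 1 of the 6 thermogenic genes were called, while *Ngfr* was called there.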

How the data were processed

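iWAT mRNA was measured by RNA-seq in 67 female and 74 male libraries, grouped by the labelled sex and by strain family, which was read from the labelled strain name. Per the methods of the study, stranded libraries were read from both ends, and the authors quantified transcripts with kallisto 0.46.1 against the Ensembl transcriptome of GRCm38/mm10 and used tximport for gene-level sums. The deposited estimated counts were not normalized between libraries, and 30.2% of them are not whole numbers (tolerance 1e-06). The deposited TPM values were scaled by the authors for transcript length, sum to 1000000 per library and carry no depth. Of the 36558 genes listed, 35935 were paired with a symbol.

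Estimated counts were rounded, filtered with filterByExpr, scaled by TMM and tested with edgeR 4.0.16 (quasi-likelihood, R 4.3.3) in the model ~ Strain + Sex over the 59 strains with both sexes, with F tests of strain in the same fit, of Sex:BXD added to it, and of family within each sex over all libraries. The study used limma with the same sex model, which was run as an alternative (limma 3.58.1, voom and log2 TPM), as was DESeq2 1.42.0. Benjamini-Hochberg adjustment ran over all tested genes, and the threshold was 0.05. The strain pairs the 2 libraries. The deviations from the sex means of the libraries of a strain correlated with a median r of 0.557 (range -0.307 to 0.795), over 0.1 in 45 of 59 strains. Levels are CPM after TMM scaling, given with their SD. Correlations are Pearson's r of log2 CPM with a prior count of 2 (numpy 2.4.6, pandas 2.3.3).

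The 6 genes and the companion and marker lists were chosen with earlier results of these data known. The named genes are the 6 members, genes of these lists, the 5 genes closest to each member by r, and the strains at the ends of each range. The steps were tested on simulated data for 3000 genes with 200 changed, of which 194 were called for sex, 200 for strain and 135 for family in females, with 12, 9 and 4 unchanged genes called. Sequences come from a RefSeq promoter table (GRCm38.p6). Floors cover counting error only. Gene-level sums cannot separate transcripts of 1 gene, and kallisto may split reads between near-identical copies. The gWAT arrays and other measurements of the study are not analysed here. The values of some genes of these lists are not reported here.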

Additional observations from a re-analysis of the deposited data

Results flagged for a closer look

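In groups of 4 to 10 libraries, the highest and the lowest library of each member were compared with the rest of the group by Dixon's gap ratio. The 9 AXB/BXA females were the 1 group of that size, in which 5 genes were tested, and chance alone flags about 1 in 20 such groups of normally distributed values. The ratio was taken on CPM without a log step, and for skewed levels chance can flag a high library more often. The group includes AXB19/PgnJ, AXB19a/PgnJ and AXB19b/PgnJ, taken as independent. *Sox10* stood apart in AXB13/PgnJ, at 55.3 CPM against 17.4 CPM in the next library, a gap of 0.749 of the whole range (critical value 0.493). The male library of that strain had 5.88 CPM of *Sox10* and 19.9 CPM of *Ngfr*, the highest *Ngfr* level of all libraries. *Ngfr* stood apart in the female library of AXB12/PgnJ, at 13.4 CPM against 7.15 CPM in the next library, a gap of 0.520 of the range. That library was also the lowest of all in *S100b* (1.47 CPM) and *Pmp22* (44.1 CPM), held 1022 CPM of summed lymph node markers and had the lowest adipocyte marker sum among females (3358 CPM). The male library of the strain had 2.94 CPM of *Ngfr*.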

How the results depend on the processing

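The sex differences of *Sox10* (log2FC from 2.27 to 3.20), *S100b* (-0.81 to -0.41) and *Pmp22* (-0.54 to -0.35) kept their direction and call under all 14 alternatives. That of *Mbp* lost its call with library totals (-0.15). That of *Ngfr* lost it with no filter on low counts (0.34), limma-voom (0.25), no replicate block (0.19), all libraries with no replicate block (0.17) and in the 20 strains low in lymph node markers (0.26), the last chosen after seeing the data. Leaving out the strain pairing (no replicate block) changed no other member's call. Genes called higher in females numbered 4759, against 7410 with library totals (72.8% of calls in place of 48.8%) and 3157 in those 20 strains, and limma put 65.4% of calls higher on log2(TPM + 0.1) and 64.99% on log2(TPM + 1). For the strain term, *Sox10* was called by limma-voom (adjusted p = 0.00489), and *Pmp22* lost its call with limma-voom (adjusted p = 0.059) and with no filter (adjusted p = 0.0582). In the interaction of sex with BXD, *Sox10* turned from 0.04 to -0.049 without NZW/LacJ, and neither value was called.

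The share of genes called for family moved most. In females it was 5.59%, against 3.28% with at least 10 counts in every library, 0.747% and 0.996% for limma on log2(TPM + 0.1) and on log2(TPM + 1), 3.43% without BXD34/TyJ and BXD69/RwwJ and 0.237% without the libraries over 100 CPM of lymph node markers, an alternative chosen after seeing the data. In males it was 10.5%, against 17.8% and 15.9% by the same limma fits and 2.78% without the libraries rich in lymph node markers. Leaving out 1 CXB or BXH library at a time gave 5.04% to 5.42% in females and 6.86% to 12.2% in males, with 6.86% without BXH9/TyJ and 6.94% without CXB11/HiAJ. The r of *S100b* with *Mcur1* was 0.42 on log2(TPM + 1), and that of *Pmp22* with *Pttg1ip* was 0.72 by Spearman's rank. Of the values of single companion genes and lists, 1122 kept their call, 74 lost it and 77 counts moved. The cause of these changes was not tested. *Th* stood at the limit of detection, and the part of depth in this was not tested. The 2 to 3 libraries of CXB and BXH limit any statement on those families.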
